A study of Mus musculus with 8 samples.

Results

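Ser5P-only sites are stretches of the mouse genome that carried a peak of RNA polymerase II phosphorylated on serine 5 but no called peak of the serine 2 form. They were chosen by merging all overlapping peaks of 8 CUT&Tag peak lists and keeping the merged regions with a peak in at least 3 of the 4 Ser5P libraries and in 0 of the 4 Ser2P libraries. The rule kept 346 of 56005 merged regions, or 0.618%, and this number ranged from 166 to 622 when single libraries were left out. The libraries came from MEL cells, a mouse erythroleukaemia line kept in culture, and CUT&Tag uses an antibody to tether a transposase that cuts and tags the chromatin around the antibody's target. In the Myrlin KD group, a CRISPR-edited MEL line carried the knockdown of Myrlin, the RNA transcribed from the enhancer upstream of Myb. It was compared with a MEL line labelled dCAS control. Each line gave 2 libraries with the Ser5P antibody (clone D9N5I) and 2 with the Ser2P antibody (clone E1Z3G), so all 4 groups had n = 2. The labels call the libraries biological replicates. Whether they came from separate cultures, or a line from 1 clone, is not stated there, and the tests therefore cover library-to-library variation that could be technical.

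The largest subunit of RNA polymerase II, Rpb1, ends in a tail of heptad repeats. Serine 5 of the repeats is phosphorylated by the kinase of the general factor TFIIH when transcription starts, and the mark is known to be densest at gene 5′ ends and at active enhancers. Serine 2 is phosphorylated later, by kinases that include P-TEFb, and that mark builds up along the gene body and past the polyadenylation site. The genes of transfer RNAs, Y RNAs and some small nuclear RNAs are transcribed by RNA polymerase III, which lacks this tail, while replication-dependent histone genes are short, lack introns and are transcribed by RNA polymerase II.

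Promoter sequences are shown for the 3 highest-ranking Ser5P-only genes with an entry in the RefSeq promoter table, namely the histone gene H4c18, the antiviral gene Rsad2 and the immediate-early gene Ier3, and for the histone genes H1f1 and H3c11, which were picked after their values were seen. Each runs from 250 bases before to 50 bases after the annotated 5′ end on the gene's own strand (GRCm38.p6). Capitals mark every TATAAA and CCAAT on either strand.
H4c18: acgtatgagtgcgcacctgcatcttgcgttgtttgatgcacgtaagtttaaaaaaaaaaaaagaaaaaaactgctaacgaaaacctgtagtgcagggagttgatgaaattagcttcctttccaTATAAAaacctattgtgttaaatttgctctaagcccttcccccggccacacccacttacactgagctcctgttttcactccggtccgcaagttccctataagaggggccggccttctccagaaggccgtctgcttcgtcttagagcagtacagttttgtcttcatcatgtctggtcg
Rsad2: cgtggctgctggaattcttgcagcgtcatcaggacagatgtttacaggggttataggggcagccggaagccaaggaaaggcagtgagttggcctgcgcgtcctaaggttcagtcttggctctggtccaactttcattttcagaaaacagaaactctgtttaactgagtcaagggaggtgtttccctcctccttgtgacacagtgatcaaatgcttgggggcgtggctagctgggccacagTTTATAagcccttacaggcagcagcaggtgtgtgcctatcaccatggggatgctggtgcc
Ier3: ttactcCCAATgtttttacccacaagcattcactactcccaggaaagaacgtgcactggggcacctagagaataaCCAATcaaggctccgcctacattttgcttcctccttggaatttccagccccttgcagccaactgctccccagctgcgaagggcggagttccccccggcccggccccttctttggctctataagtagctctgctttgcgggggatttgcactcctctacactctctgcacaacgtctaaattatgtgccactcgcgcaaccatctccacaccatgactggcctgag
H1f1: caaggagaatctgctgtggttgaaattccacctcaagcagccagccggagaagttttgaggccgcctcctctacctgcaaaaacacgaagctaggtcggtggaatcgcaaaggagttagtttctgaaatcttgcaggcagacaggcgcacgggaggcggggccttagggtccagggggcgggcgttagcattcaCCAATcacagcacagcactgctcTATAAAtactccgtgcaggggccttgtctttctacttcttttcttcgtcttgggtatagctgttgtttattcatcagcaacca
H3c11: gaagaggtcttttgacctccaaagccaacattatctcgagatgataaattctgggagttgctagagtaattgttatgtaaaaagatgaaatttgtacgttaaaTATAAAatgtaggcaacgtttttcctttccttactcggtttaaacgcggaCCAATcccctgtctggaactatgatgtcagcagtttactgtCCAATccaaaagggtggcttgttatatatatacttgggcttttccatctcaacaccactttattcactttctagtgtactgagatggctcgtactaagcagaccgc
The windows are chr13:21832148-21832447 on the minus strand for H4c18, chr12:26456403-26456702 on the minus strand for Rsad2, chr17:35821463-35821762 on the plus strand for Ier3, chr13:23763418-23763717 on the plus strand for H1f1 and chr13:21783348-21783647 on the minus strand for H3c11. In H1f1, CCAAT began 56 bases and TATAAA 33 bases before the 5′ end. In H3c11, CCAAT began 97 and 56 bases and TATAAA 147 bases before it. Ier3 held 2 CCAAT and no TATAAA, and Rsad2 held TATAAA on the opposite strand, 10 bases before the 5′ end. H4c18 held TATAAA 127 bases before it. These matches describe the letters of the window only.

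Of the 346 Ser5P-only sites, 112 had a peak in all 4 Ser5P libraries and 234 in 3. The deposited Ser5P lists held 21574 and 24509 peaks in the KD libraries and 23964 and 25441 in the control libraries. For Ser2P there were 32125 and 29372 peaks in the KD libraries and 30286 and 20793 in the control libraries. The Ser2P control 2 list was the shortest of the 8, and the absence of a Ser2P peak means that none reached the authors' threshold in that list. Among the 18374 regions with Ser5P in at least 3 libraries, 1.88% were Ser5P-only, 15954 had Ser2P in at least 3 libraries (both-mark sites) and 2074 had Ser2P in 1 or 2. The promoter marks were checked against the labelled cell type. Among coding genes, 38.8% had Ser5P in 4 libraries at the 5′ end, against 12 of 24 erythroid and haematopoietic regulators and 15 of 25 red-cell genes, 3 of 18 megakaryocyte and mast cell markers, and 0 of 20 each for lymphoid, myeloid and non-haematopoietic markers.

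The sites lay at the weak end of the Ser5P peaks. The fold of a peak is the authors' own summit enrichment within its list and serves here only to rank and describe. The median fold of peaks at Ser5P-only sites was 4.32 and 4.09 in the KD libraries and 4.60 and 4.45 in the control libraries. Peaks at both-mark sites had medians of 6.09 and 5.89 in the KD libraries and 6.54 and 6.49 in the control libraries. At sites with Ser2P in 1 or 2 libraries they were 4.34 and 4.27 in the KD libraries and 4.76 and 4.62 in the control libraries. A low fold was therefore not particular to Ser5P-only sites. Among regions with Ser5P in all 4 libraries, the share of Ser5P-only sites was 1.88% in the lowest decile of the smallest fold and 0.279% in the highest decile. Merged regions were also narrower, with a median of 583.5 bp for all 346 Ser5P-only sites against 938 bp for both-mark sites. Sites with Ser2P in 1 or 2 libraries had a median of 655 bp. Regions with Ser2P also merge the Ser2P peaks, so these widths are not independent of the rule. Summit spread was taken over sites with Ser5P in all 4 libraries. The summits of their strongest peaks spread over a median of 211 bp at 112 Ser5P-only sites and 139 bp at 13465 both-mark sites. At 772 sites with Ser2P in 1 or 2 libraries the median was 188.5 bp.

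Regions just inside and just outside the rule had similar folds. The median of the smallest fold was 4.36 for members in 4 Ser5P libraries, 3.65 for members in 3, 3.77 for the 1044 regions in 2 Ser5P libraries without Ser2P, and 3.85 for the 720 regions with 1 Ser2P library. Of those 720 regions, 272 had their Ser2P peak in KD 1, 170 in KD 2, 218 in control 1 and 60 in control 2. The highest-ranking regions missing by 1 library included chr16:3121432-3121868, between genes, with 2 Ser5P libraries and a smallest fold of 19.4. The highest-ranking region kept out by 1 Ser2P library was chr4:28176787-28177237 in the predicted gene Gm52725, with a smallest Ser5P fold of 18.8 and a Ser2P fold of 5.91. The 3 highest-ranking members in 3 Ser5P libraries lay in Smyd3, a lysine methyltransferase gene, and at the 5′ ends of the predicted genes Gm10505 and Gm32067, with smallest folds of 7.39, 6.41 and 6.26.

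Position was not used to choose the sites. Ser5P-only sites were at gene 5′ ends in a smaller share, and between genes in a larger share, than both-mark sites in every Ser5P library. By the summit of the strongest Ser5P peak, 67 sites (19.4%) lay within 1000 bp of an annotated gene 5′ end, 150 (43.4%) inside a gene and 129 (37.3%) between genes. Both-mark sites were at 5′ ends in 52.0%, inside genes in 31.6% and between genes in 16.5%. Per library, 18.4 to 21.5% of the Ser5P peaks at Ser5P-only sites were at a 5′ end, against 52.8 to 54.3% of the Ser5P peaks at both-mark sites. The difference averaged -34.1 percentage points over the 4 libraries (two-sided exact sign-flip permutation test, p = 0.13, the smallest that 4 libraries allow, so that no difference can pass 0.05), and the ranges did not overlap. The share between genes ranged from 38.6 to 39.3% at Ser5P-only sites and from 15.9 to 16.2% at both-mark sites, a difference of 22.9 points in the same direction in 4 of 4 libraries (same exact test, p = 0.13). These 4 libraries share most of their sites and are not independent samples of positions.

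**Figure D1:**
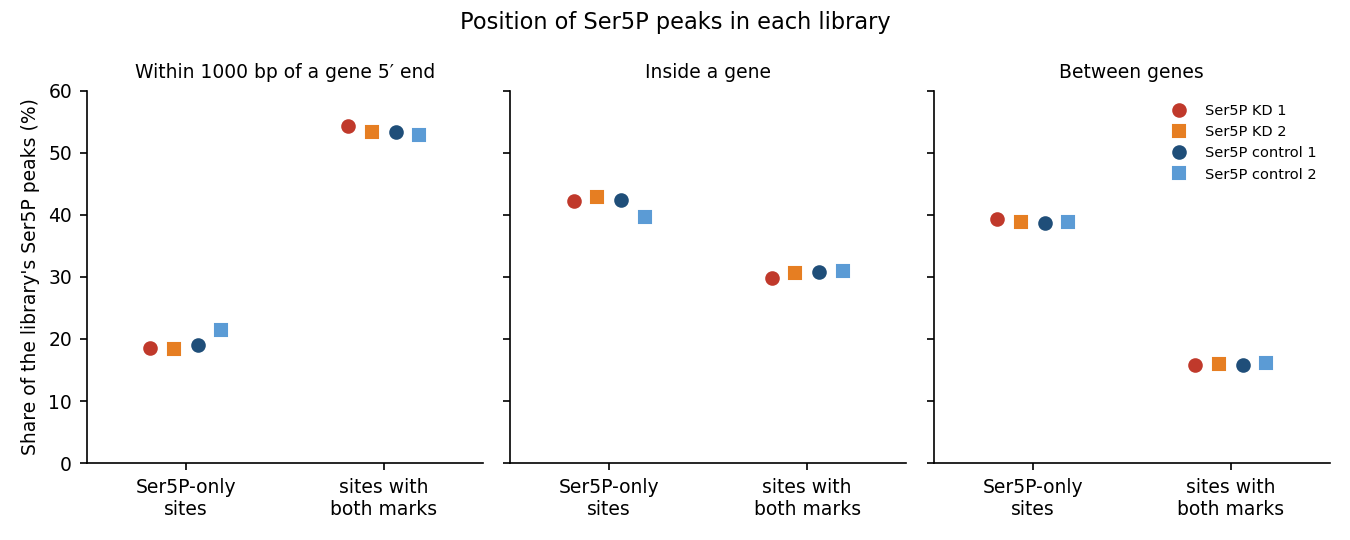
Share of each library's Ser5P peaks (y axis, percent) that lie within 1000 bp of a gene 5′ end, inside a gene or between genes, at Ser5P-only sites (left in each panel) and at sites with both marks (right). Each point is 1 library (KD in red and orange, control in blues). At 5′ ends the Ser5P-only points lie between 18.4 and 21.5% and the both-mark points between 52.8 and 54.3%, and between genes the order is the other way round.

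The excess between genes was also present against closer comparisons, which were chosen after the data were seen. Against the 2074 sites with Ser2P in 1 or 2 libraries, the Ser5P-only share between genes was higher by 8.47 points in 4 of 4 libraries (exact sign-flip permutation test, p = 0.13). The share at 5′ ends differed by only -1.13 points and was lower in 3 of 4 libraries (same exact test, p = 0.375). Against the 3709 both-mark sites whose smallest Ser5P fold fell in the interquartile range of the Ser5P-only sites, the difference was 16.8 points between genes and -12.9 points at 5′ ends (exact test, p = 0.13 each). The share inside genes was 11.1 points above that of all both-mark sites, but differed by -7.34 and -3.86 points from the 2 closer sets, so its direction depended on the comparison.

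The highest folds of all Ser5P-only sites were found between genes. The first, chr8:52336736-52337087, had folds of 24.7 and 26.3 in the KD libraries and 22.5 and 24.8 in the control libraries. It overlapped Gm25813, annotated as an snRNA gene (small nuclear RNA, the class that includes the spliceosomal RNAs), and its nearest Ser2P peak was 1174560 bp away. The folds of the 2 lines overlapped. Ser5P peaks covered 347 and 352 bp of it in the KD libraries and 341 and 343 bp in the control libraries (limma log2 difference 0.03, adjusted p = 0.957). The second, chr16:3344377-3345176, overlapped no annotated gene and had folds of 13.6 and 14.6 in the KD libraries and 14.5 and 16.2 in the control libraries. Its nearest gene 5′ end, that of the predicted gene Gm35974, was 123.6 kb away, and the nearest Ser2P peak was 5925 bp away.

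**Figure D2:**
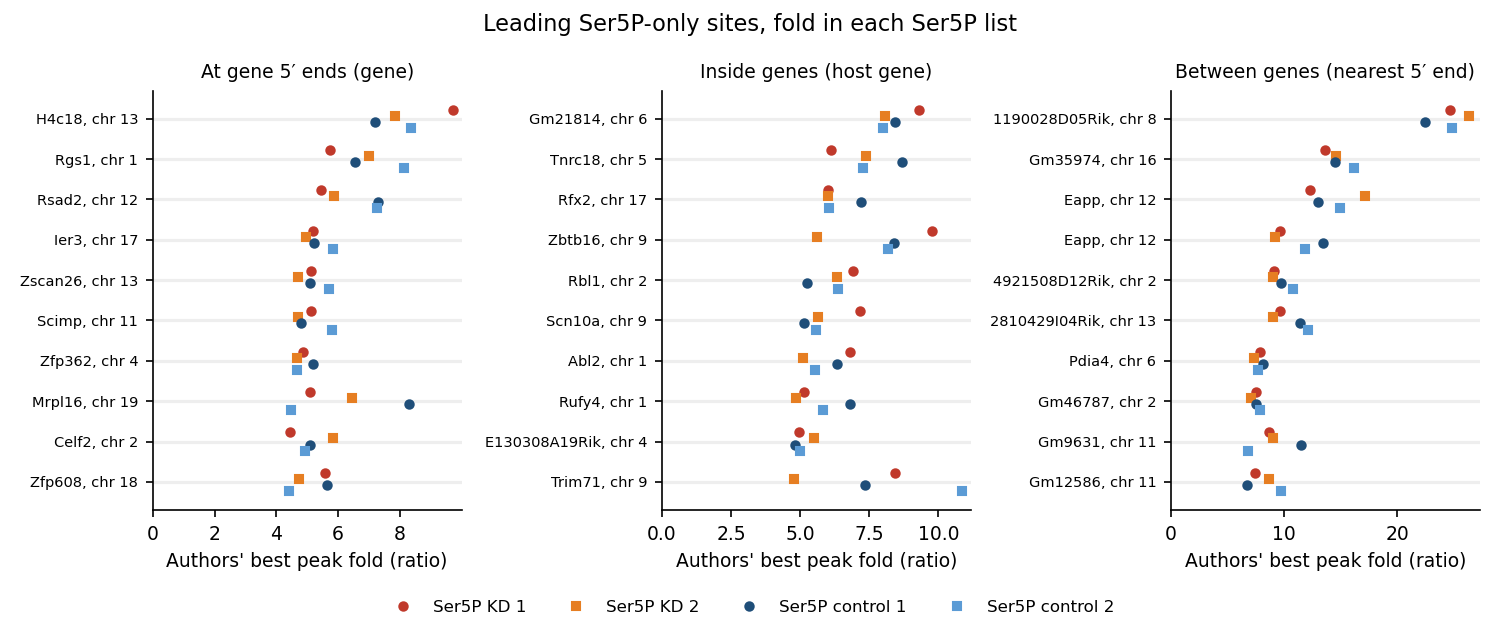
Fold of the best Ser5P peak in each of the 4 Ser5P lists (x axis, the authors' ratio) for the 10 leading Ser5P-only sites of each position class; rows name the gene, the host gene or the nearest 5′ end, with the chromosome. Points are libraries, KD in red and orange and control in blues. The top site between genes lies between 22.5 and 26.3, while H4c18 leads the gene 5′ ends with folds between 7.19 and 9.73.

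More of the leading sites between genes stood at small RNA genes. The site chr12:54710386-54710760 overlapped the snRNA gene Gm22634 and had folds of 12.3 and 17.1 in the KD libraries and 12.96 and 14.9 in the control libraries. The site chr12:54717486-54717910, close to it, overlapped no gene and had folds of 9.65 and 9.18 in the KD libraries and 13.5 and 11.9 in the control libraries. Values of the 2 lines overlapped at the first of these sites, while at the second both KD folds were below both control folds. The site chr6:47787640-47788674 overlapped Rny1, which encodes a Y RNA, a small RNA bound by the Ro60 protein. It had folds of 7.86 and 7.30 in the KD libraries and 8.17 and 7.68 in the control libraries, which overlapped. The remaining leading sites between genes overlapped no annotated gene, with smallest folds from 6.76 to 9.01.

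Small RNA genes were then counted at all sites, a look that was chosen after the positions had been seen. A tRNA gene lay within 1000 bp of 11 Ser5P-only sites (3.18%), against 79 both-mark sites (0.495%) and 24 sites with Ser2P in 1 or 2 libraries (1.16%). An snRNA gene lay there at 4 Ser5P-only sites (1.16%), against 0.332% of both-mark sites and 0.386% of sites with partial Ser2P. Both annotated Y RNA genes, Rny1 and Rny3, had a Ser5P-only site within 1000 bp. Rny1 was overlapped by its site. Rny3 was not, and was itself overlapped by a site with Ser2P in 1 or 2 libraries. In all, 17 Ser5P-only sites (4.91%) lay within 1000 bp of a tRNA, snRNA or Y RNA gene. For microRNA genes the shares were 1.16% and 0.677%, and for snoRNA genes 0.289% and 0.458%, at Ser5P-only and both-mark sites. The tRNA share stayed above that of both-mark sites with each of the 8 libraries left out in turn, between 2.3 and 4.22% against 0.504 to 0.554%. The snRNA share rests on few sites and moved more, at 1.13% without Ser2P KD 1, 1.36% without Ser2P KD 2, 0.708% without Ser2P control 1, 0.98% without Ser2P control 2 and 2.17 to 2.41% without any 1 Ser5P library, against 0.352 to 0.39% of both-mark sites. Genes of these classes are repeated in the genome, and how reads that map to several places were handled is not given in the sources used here.

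The site chr13:21240947-21241444, at the alanine tRNA gene n-TAtgc11, had folds of 5.75 and 5.02 in the KD libraries and 5.80 in control 1, with no peak in control 2. The site chr13:21259795-21260808, at n-TAagc19, had folds of 4.62 and 4.21 in the KD libraries and 4.71 and 5.79 in the control libraries. The site near Rny3, chr6:47780458-47781035, did not overlap that gene. It had folds of 3.71 and 4.04 in the KD libraries and 3.91 and 3.57 in the control libraries. Ser5P coverage of this site was nearly constant, at 494 and 499 bp in the KD libraries and 494 and 498 bp in the control libraries. Of the 11 tRNA sites, 5 had a peak in all 4 Ser5P libraries and 6 lacked it in 1.

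**Figure D3:**
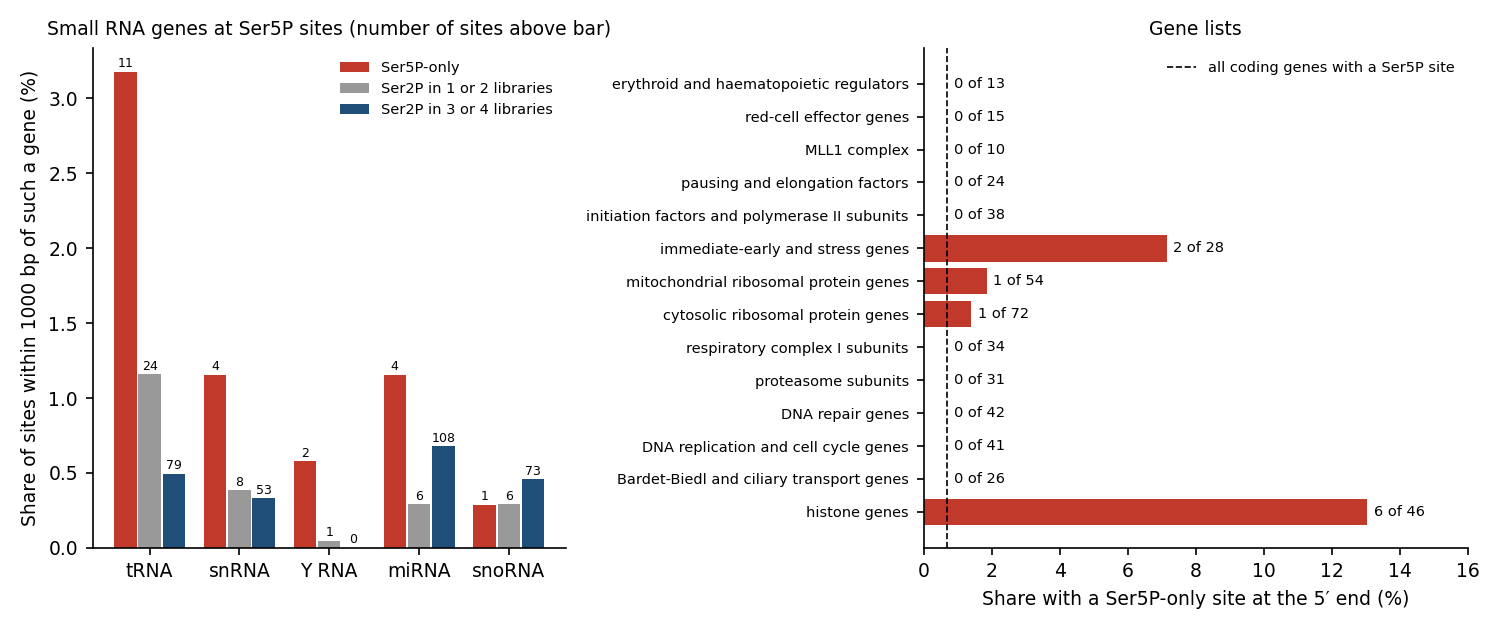
Left, share of Ser5P-only sites, of sites with Ser2P in 1 or 2 libraries and of sites with Ser2P in 3 or 4 libraries (y axis, percent) that lie within 1000 bp of a gene of each small RNA class, with the number of sites above the bar. Right, share of each gene list's members with a Ser5P site at the 5′ end that have a Ser5P-only site there (x axis, percent), with counts; the dashed line is the 0.69% of all coding genes. tRNA genes reach 3.18% of Ser5P-only sites and histone genes 13% of their list.

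Histone genes formed the gene list with the largest share. Of 56 replication-dependent histone genes, 46 had a Ser5P site at the 5′ end: 31 with both marks, 9 with Ser2P in 1 or 2 libraries and 6 Ser5P-only (13%). Among all 8991 coding genes with a Ser5P site at the 5′ end, 62 genes (0.69%) had a Ser5P-only one. The 6 genes were H1f1 (linker histone), H2ac10 (an H2A gene), H3c4 and H3c11 (H3 genes) and H4c6 and H4c18 (H4 genes), and all lay on chromosome 13, which holds 48 of the 56 genes. All 6 had a Ser5P peak in all 4 libraries. With 3 other choices of peaks and with each library left out, the number of histone 5′ ends was between 6 and 11. The list was drawn up with earlier results of these data known, and neighbouring histone genes can share 1 site.

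H1f1 had folds of 4.05 and 3.88 in the KD libraries and 3.96 and 4.04 in the control libraries, at chr13:23763485-23764151. Its Ser5P peaks covered 645 and 667 bp in the KD libraries and 511 and 562 bp in the control libraries. Both KD values were above both control values, and the limma fit across all 18374 sites did not call the difference (log2 difference 0.27, Benjamini-Hochberg adjusted p = 0.794). H3c11 had folds of 4.19 and 3.81 in the KD libraries and 3.79 and 3.93 in the control libraries, which overlapped. Its coverage was 828 and 827 bp in the KD libraries and 675 and 817 bp in the control libraries, and limma did not call this difference either (adjusted p = 0.799). H4c18 ranked first among all Ser5P-only gene 5′ ends, with folds of 9.73 and 7.83 in the KD libraries and 7.19 and 8.36 in the control libraries. Its summit lay 659 bp from the 5′ end of a gene that is 406 bp long, so the peak's highest point fell past the 3′ end of the gene.

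**Figure D4:**
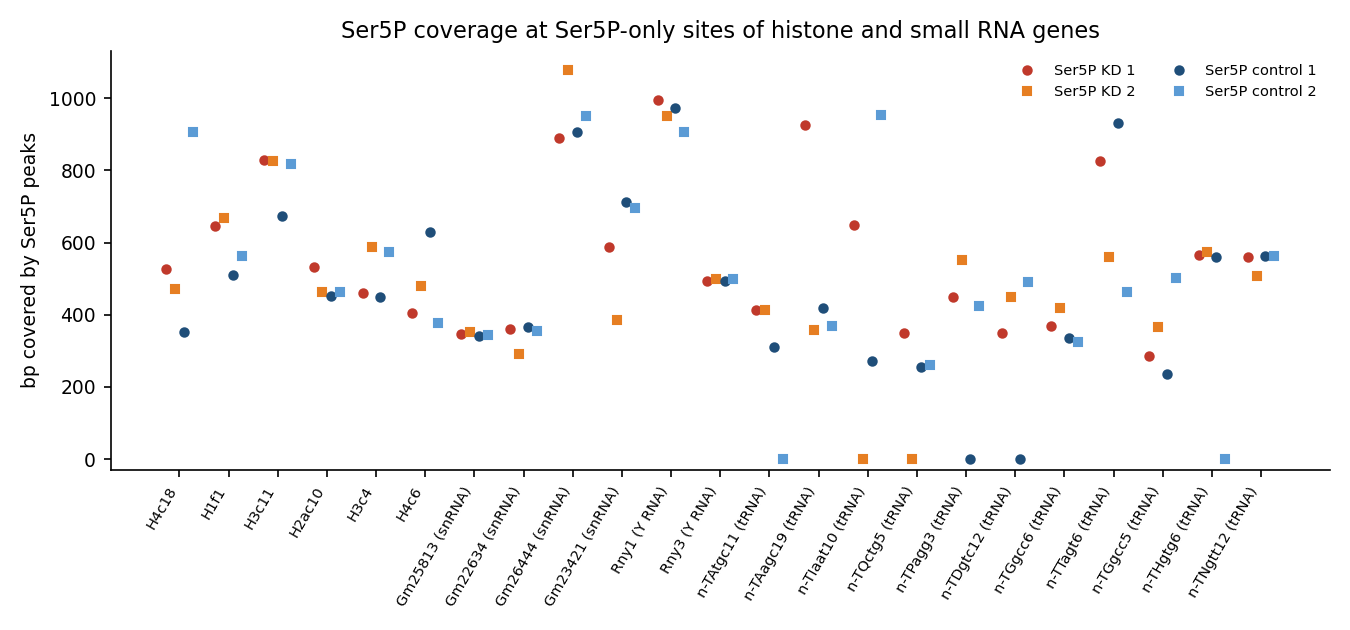
Base pairs covered by Ser5P peaks (y axis) in each Ser5P library at the Ser5P-only sites of 6 histone genes and 17 small RNA sites. Each small RNA site is named by a gene within 1000 bp of it, which it need not overlap. Points are libraries, KD in red and orange left of control in blues, and a point at 0 is a library without a peak. The 6 histone sites have a peak in every library, and H1f1 runs from 511 to 667 bp.

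The other gene 5′ ends held genes of several kinds. Of the 67 sites at a 5′ end, 56 belonged to protein-coding genes and 11 to long noncoding RNA genes. Their summits lay a median of 32 bp downstream of the 5′ end, and 50.7% were within 250 bp of it, against 78.6% at both-mark sites. Rgs1, which encodes a regulator of G protein signalling, had folds of 5.74 and 6.99 in the KD libraries and 6.53 and 8.13 in the control libraries. Rsad2, which encodes the interferon-induced enzyme viperin, had folds of 5.46 and 5.87 in the KD libraries and 7.29 and 7.27 in the control libraries. The folds of the 2 lines overlapped at Rgs1 and did not at Rsad2. Covered base pairs did not overlap at either gene. At Rgs1 they were 331 and 440 bp in the KD libraries and 557 and 594 bp in the control libraries (limma log2 difference -0.53, adjusted p = 0.794). At Rsad2 they were 312 and 452 bp in the KD libraries and 640 and 626 bp in the control libraries (limma log2 difference -0.68, adjusted p = 0.794). The nearest Ser2P peak to the Rsad2 site was 1359343 bp away.

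Ier3, an immediate-early gene, had folds of 5.19 and 4.96 in the KD libraries and 5.23 and 5.85 in the control libraries. Its Ser5P peaks covered 382 and 494 bp in the KD libraries and 694 and 661 bp in the control libraries, again without overlap (limma log2 difference -0.59, unadjusted p = 0.0486, adjusted p = 0.794). Ier3 differed from Rsad2 in its surroundings, since a Ser2P peak lay 681 bp from the site and Ser2P was called along the gene or past its 3′ end in 4 of 4 libraries. Fosb, which encodes a subunit of the AP-1 transcription factor, had a weak Ser5P-only site with folds of 3.64 and 2.65 in the KD libraries and 3.63 and 3.07 in the control libraries. Ier3 and Fosb were 2 of the 28 immediate-early and stress genes with a Ser5P site. Mrpl16, of the large mitochondrial ribosomal subunit, was 1 of 54 mitochondrial ribosomal protein genes and had folds of 5.09 and 6.44 in the KD libraries and 8.28 and 4.47 in the control libraries.

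Rpl6 was 1 of 72 cytosolic ribosomal protein genes and had folds of 3.50 in KD 1, 3.58 in control 1 and 4.22 in control 2, with no peak in KD 2. At the background of 0.69% lists of this size would seldom hold a Ser5P-only 5′ end, so a count of 0 says nothing about a list. The count was 0 among the 13 erythroid regulators, 15 red-cell genes, 10 MLL1 complex genes, 24 pausing and elongation factors, 38 initiation factors and polymerase subunits, 34 respiratory complex I subunits, 31 proteasome subunits, 42 DNA repair genes, 41 replication and cell cycle genes and 26 ciliary genes that had a Ser5P site. Zscan26, which encodes a zinc finger protein, had folds of 5.13 and 4.69 in the KD libraries and 5.11 and 5.70 in the control libraries. Scimp, which encodes a membrane adaptor of antigen-presenting cells, had 5.12 and 4.69 in the KD libraries and 4.80 and 5.80 in the control libraries. The other leading genes were Zfp362 and Zfp608, which encode zinc finger proteins, and Celf2, which encodes an RNA-binding protein that regulates splicing, with smallest folds of 4.66, 4.40 and 4.43.

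The promoters of Ser5P-only 5′ ends held fewer CpG than those of both-mark sites, by their medians. In the 67 RefSeq windows at these sites, which belong to 59 genes, the median GC content was 54.3% and the median ratio of observed to expected CpG was 0.620. The ratio was 0.706 in 423 windows of sites with Ser2P in 1 or 2 libraries, 0.799 in 9663 windows of both-mark sites and 0.384 in all 32851 windows. TATAAA occurred on either strand in 14.9% of the Ser5P-only windows, against 5.65% at both-mark sites and 13.6% of all windows. CCAAT occurred in 23.9%, against 40.2% and 37.4%, and the GC box GGGCGG in 53.7%, against 67.7% and 35.7%. The core of the CTCF site occurred in 6 windows (8.96%), against 3.10% at both-mark sites and 2.43% of all windows. The windows of sites with Ser2P in 1 or 2 libraries held TATAAA in 9.93% and CCAAT in 28.1%. They held the GC box in 56.0% and the CTCF core in 1.89%. Several windows can belong to 1 gene, and these shares are descriptions without a test.

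Inside genes, the 150 sites lay in 129 cases in a protein-coding gene, 126 genes in all, with a median length of 51.6 kb for the host gene. The median distance to the nearest gene 5′ end was 11.9 kb. The leading site stood in the predicted gene Gm21814, with folds of 9.29 and 8.05 in the KD libraries and 8.41 and 8.01 in the control libraries. In Tnrc18 the folds were 6.11 and 7.38 in the KD libraries and 8.69 and 7.27 in the control libraries. Rfx2 encodes a transcription factor of ciliated cells, and its site, 4079 bp from the 5′ end, had folds of 6.01 and 6.02 in the KD libraries and 7.19 and 6.06 in the control libraries. In Zbtb16, which encodes the zinc finger factor PLZF, folds ran from 5.59 in KD 2 to 9.77 in KD 1, with 8.38 and 8.19 in the control libraries between them.

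Rbl1, which encodes the retinoblastoma-like protein p107, had folds of 6.91 and 6.32 in the KD libraries and 5.23 and 6.37 in the control libraries. The sodium channel gene Scn10a had 7.15 and 5.65 in the KD libraries and 5.14 and 5.56 in the control libraries, and its Ser5P coverage of 476 and 436 bp in the KD libraries lay above the 308 and 257 bp of the control libraries (limma log2 difference 0.61, adjusted p = 0.794). Trim71, which encodes an RNA-binding ubiquitin ligase of early development, varied between libraries of 1 line, with 8.44 and 4.77 in the KD libraries and 7.35 and 10.9 in the control libraries. The sites in the kinase gene Abl2, in Rufy4 and in E130308A19Rik had smallest folds of 5.10, 4.84 and 4.82. Ser2P was not missing from the host genes as a whole. Of 124 coding host genes with a known strand, 86.3 and 84.7% had a Ser2P peak somewhere in the gene in the KD libraries, and 84.7 and 77.4% in the control libraries.

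Ser2P peaks were often close by. The nearest Ser2P peak of any library was a median of 5280.5 bp from a Ser5P-only site. It was within 1 kb at 71 sites (20.5%), within 5 kb at 164 (47.4%) and within 50 kb at 320 (92.5%). The median was 1663 bp for sites at gene 5′ ends, 6320.5 bp for sites inside genes and 5522 bp for sites between genes. The same distances were not measured for other Ser5P regions, so closeness is not read as a trait of these sites.

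**Figure D5:**
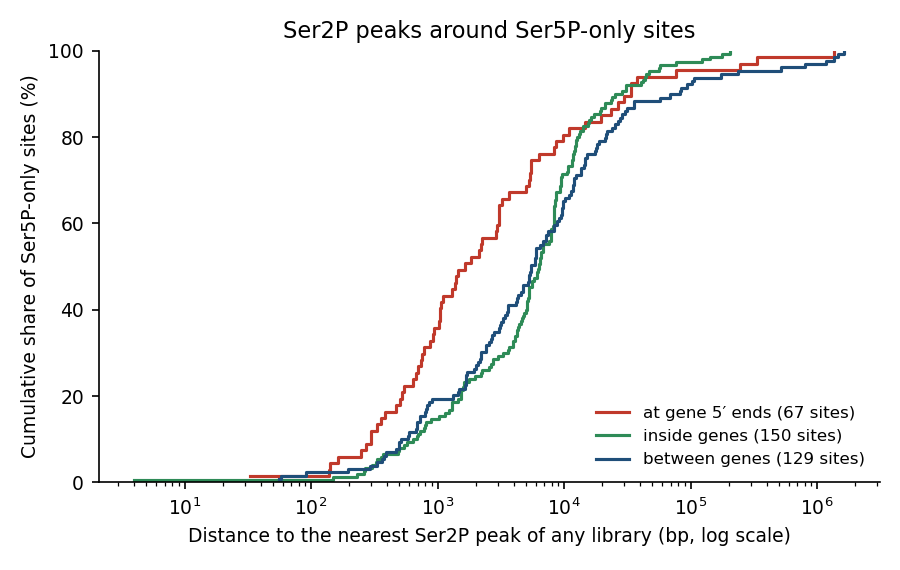
Cumulative share of Ser5P-only sites (y axis, percent) by distance to the nearest Ser2P peak of any of the 4 Ser2P libraries (x axis, bp, log scale), for the 67 sites at gene 5′ ends, the 150 inside genes and the 129 between genes. The curve of the 5′ ends lies to the left, with a median of 1663 bp against 6320.5 and 5522 bp.

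The rule asks for no Ser2P peak at the site and not along the gene. Ser2P was therefore compared from 1000 bp inside the 5′ end of each gene to 3000 bp past its 3′ end. The same Ser2P lists had sorted the sites. A Ser2P peak of a both-mark site that reached into this window counted, while a Ser5P-only site had none to count. The difference below is therefore not independent of the rule. In genes shorter than 1000 bp, such as the Ser5P-only histone genes, the window held only sequence past the gene. Of the 62 coding genes, 46 had no other Ser5P site at a 5′ end. A Ser2P peak was called over 47.8 and 50.0% of these 46 genes in the KD libraries and 47.8 and 37.0% in the control libraries. Over the 8628 coding genes with a both-mark 5′ end, the shares were 64.8 and 62.4% in the KD libraries and 62.2 and 49.4% in the control libraries. The mean was 45.7 ± 5.89% for Ser5P-only genes and 59.7 ± 6.96% for both-mark genes (SD, n = 4 libraries), lower by 14.1 points on average in 4 of 4 libraries (two-sided exact sign-flip permutation test, p = 0.13, the smallest possible). Keeping only peaks with a −log10 q of at least 5 in all lists reduced the difference to -3.64 points, and leaving out Ser2P KD 1 to -6.36 points.

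Gene length moved with this comparison. The 46 Ser5P-only genes had a median length of 8.70 kb and the both-mark genes 21.4 kb. Among genes of 20 kb or more, 15 Ser5P-only genes had Ser2P in 48.3 ± 6.38% and 4509 both-mark genes in 72.7 ± 7.29%, a difference of -24.4 points (exact sign-flip permutation test, p = 0.13, n = 4 libraries). Among genes of 5 to 20 kb the difference was 2.02 points (same exact test, p = 0.625), and among those under 5 kb 5.25 points (same exact test, p = 0.25). The sign was positive in both shorter classes. Of the 46 genes, 19 had Ser2P in none of the 4 libraries, among them Rgs1, Rsad2, Zscan26, Scimp and Mrpl16. H1f1 was also counted there, but at 745 bp it ends before the window starts, so its body was not covered. The other Ser5P-only histone genes are shorter still and fall in the class under 5 kb. In 14 it was called in all 4, among them Ier3, Fosb and the actin gene Actg1.

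Some sites lay close together. With members at most 50 kb apart joined, 50 of the 346 sites (14.5%) fell in 19 clusters, 6 of which held 3 or more. No matching share was computed for other Ser5P sites, so the 14.5% is not read as a trait of these sites. The largest cluster, chr3:96312476-96547127, held 8 Ser5P-only sites among 26 Ser5P sites, in a stretch with 25 tRNA and 8 snRNA genes. At chr13:23517729-23576129, in a stretch of 13 coding and 7 tRNA genes that includes H2ac10, H4c6 and H3c4, 4 of 12 Ser5P sites were Ser5P-only. At chr12:54710386-54729225, 3 of 4 were, beside 3 snRNA genes and no coding gene. At chr13:23437571-23465876, 3 of 4 were, with 7 tRNA genes, and at chr5:151686969-151734574 all 3 were, with 1 snRNA gene. By chromosome, chromosome 13 had the highest share of Ser5P-only sites, at 30 of 647 Ser5P sites (4.64%), followed by chromosome 3 at 27 of 916 (2.95%).

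Between the 2 lines, presence of a peak was spread over the Ser5P libraries. The rule itself lets a member lack a peak in at most 1 Ser5P library. A region without a peak in both libraries of a line was left out beforehand. The counts below therefore cannot show whether sites were lost or gained in a line. A peak was called at 271 and 292 of the 346 sites in the KD libraries and at 294 and 293 in the control libraries. Of the 234 sites missing 1 library, 75 (32.1%) lacked KD 1, 54 (23.1%) KD 2, 52 (22.2%) control 1 and 53 (22.6%) control 2. Together, 129 sites (55.1%) lacked a KD library and 105 (44.9%) a control library. Over all 4025 regions with Ser5P in exactly 3 libraries, 59.4% lacked a KD library and 40.6% a control library, so the members were close to the background. KD 1 had the shortest of the Ser5P lists.

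Peak widths of the 2 lines overlapped. The median width of Ser5P peaks at these sites was 379 and 405 bp in the KD libraries and 362 and 384 bp in the control libraries. Relative to the median of all Ser5P peaks of the library it was 0.736 ± 0.036 in KD and 0.759 ± 0.020 in control (SD, n = 2 each), a difference of -0.023 (two-sided exact permutation test, p = 0.667, where 0.33 is the smallest possible). Among the 112 sites with a peak in all 4 Ser5P libraries, covered base pairs of the 2 lines did not overlap at 24 sites with KD higher (21.4%) and 20 sites with KD lower (17.9%). The background over the 14349 regions with Ser5P in 4 libraries was 23.6% with KD higher and 14.2% with KD lower.

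The limma fit on log2(covered bp + 50) over the 18374 regions called 0 of them higher and 0 lower in KD at an adjusted p under 0.05 (background 0%). At an unadjusted p under 0.05, 5 Ser5P-only sites were higher and 5 lower in KD (1.45% each), against 2.77% higher and 1.18% lower over all regions. This balance depended on the setting. With coverage divided by the library median it was 2 higher and 8 lower. It was 5 higher and 56 lower without KD 1, 6 and 84 without KD 2, 58 and 4 without control 1, and 54 and 3 without control 2, so no direction is read from it. With 2 libraries a line, these counts do not show that coverage was equal. The filter of at least 3 Ser5P libraries also left out every region with peaks in only 1 line, so such differences were not tested.

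At Myb itself no Ser5P-only site was found in the 150 kb upstream of the 5′ end. The region nearest to the enhancer that gives rise to Myrlin, chr10:21241789-21242346, 81.1 kb upstream, had Ser5P in 3 libraries and Ser2P in 2, so it fell outside the rule. The Myb 5′ end, at chr10:21160622-21161750, carried both marks in all 8 libraries.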

How the data were processed

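CUT&Tag peak lists of 8 libraries, each called separately, were used. The submitters' processing notes list MACS2 (2.2.7.1), Bowtie2 (2.3.5), cutadapt (2.7), Picard (2.21.4), SAMtools (1.9) and deepTools (3.3.1), without their roles, and mouse build GRCm38 (mm10). No source used here gives the settings. For each peak the authors deposited a summit fold enrichment (a ratio), −log10 values of p and q, and a score for display. Read depth is unknown. Peaks on chromosomes 1 to 19, X and Y were merged where they overlapped by at least 1 bp. Gene 5′ ends came from the RefSeq promoter table of GRCm38.p6, or else from the outer end of the RefSeq gene interval, with strand from GENCODE. The supplied genome is of another build, so it was left aside and only promoter sequences are printed. Exons and introns were not used here.

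Shares were compared over libraries by exact sign-flip or permutation tests, computed in Python 3.11.15. limma 3.58.1 was fitted to log2(covered bp + 50) over every region with Ser5P in at least 3 libraries, with Benjamini-Hochberg adjustment, and tested on simulated data. Named sites were, per position class, the 10 in all 4 Ser5P libraries with the highest smallest fold (predicted genes passed over at gene ends), up to 4 members per gene list, and 3 regions on each side of each threshold; other genes, and those named in the Ser2P comparison, were chosen after their values were seen. The members, lists and tests were chosen with earlier results of these data known. Alternatives were other peak thresholds, overlaps, windows and rules, leaving out each library, and other limma settings.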

Additional observations from a re-analysis of the deposited data

How the results depend on the processing

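The number of Ser5P-only sites depended on the peaks kept. It was 539 with equal numbers of peaks per list, 89 with −log10 q of at least 5 asked of Ser5P peaks alone and 112 when all 4 Ser5P libraries were required. With single libraries left out it ranged from 166 to 622. It was 166 without Ser5P control 1, Ser5P control 2 or Ser5P KD 2 and 184 without Ser5P KD 1, where the 3 others were all required, and 565 without Ser2P control 1 and 622 without Ser2P KD 1. It was 302 with −log10 q of at least 5 in all lists, 343 with peaks up to 200 bp apart merged, and 310 with no Ser2P peak within 500 bp. The shares at gene 5′ ends and between genes kept their direction in all 19 alternatives. The share inside genes turned to -3.97 points with −log10 q of at least 5 for Ser5P alone, and to -7.34 and -3.86 points against sites with Ser2P in 1 or 2 libraries and against both-mark sites of like fold; the cause was not tested. The difference in peak width kept its sign in all 15 alternatives. It ran only from -0.128 to -0.013 there, and no effect of the knockdown is read from it. The difference in Ser2P along genes kept its sign in all 17 alternatives. These did not include the gene length classes, where it was positive under 5 kb (5.25 points) and at 5 to 20 kb (2.02 points). limma called 0 regions with the replicate block, with other scalings and pseudocounts and without each Ser5P library, where the lone library of a line is assumed to vary like the other line. The replicate number did not pair the libraries, since the correlation of same-numbered deviations was 0.0043. Without the filter on Ser5P libraries limma called 1743 regions, of which 0 were Ser5P-only. That fit adds regions with Ser5P in 1 or 2 libraries, where peaks can be confined to 1 line. The rule keeps such regions out of the members, so the 0 is not read as a trait of them. The cause of the calls was not tested. Peak lists carry no read counts, so a site without a peak may hold signal under the threshold.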
